A study of Mus musculus with 16 samples.

Results

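The fast fibre contractile genes described here are 10 named isoforms of the sarcomere and of its calcium supply: Myh4, Myh1, Myh2, Mylpf, Tnni2, Tnnt3, Tnnc2, Atp2a1, Casq1 and Pvalb. They were taken as the probes assigned to a transcript of each gene, and they make up 10 of the 14103 named genes and 22145 features that could be tested. All 10 were above background on all 16 arrays. The RNA came from the soleus, a postural calf muscle, of male mice, and its transcripts were read in a single colour on Agilent whole-genome arrays. The muscles were sampled at day 0, before hypoxia, with 4 RNA samples, and at day 3, with 3, day 7, with 3, and day 14, with 4. Oxygen was brought down by degrees to 10% during the first week and held there in the second. The labels give no strain, age or genotype, mark the day 0 samples with the same treatment word as the others, and name no normoxic group at later days, so day of hypoxia and time in the experiment cannot be told apart. The design text gives 4 soleus muscles a time but not whether they came from separate mice, and the p-values therefore measure only the spread between these samples.

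Skeletal muscle fibres are built from alternative sets of contractile proteins. Slow fibres carry the slow myosin heavy chain and slow troponins, and fast fibres carry the isoforms listed here together with a larger and faster calcium store. Among fast fibres, Myh2 encodes the heavy chain of type IIA fibres, Myh1 that of type IIX and Myh4 that of type IIB, the fastest. The soleus of the mouse is a mixed muscle of mainly slow and type IIA fibres, in which type IIB fibres are rare.

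The 3 fast heavy chain genes lie side by side on chromosome 11 in the order Myh2, Myh1 and Myh4, followed by the perinatal Myh8, with the noncoding RNA Myhas between Myh1 and Myh4. The 250 bases before each start are shown because the 3 neighbours behaved differently in these samples and because they share a stretch of promoter. The sequences are RefSeq's and are written 5′ to 3′, with the longest stretch common to all 3 in capitals.
Myh2, GRCm38.p6 chr11:67170777-67171026, plus strand: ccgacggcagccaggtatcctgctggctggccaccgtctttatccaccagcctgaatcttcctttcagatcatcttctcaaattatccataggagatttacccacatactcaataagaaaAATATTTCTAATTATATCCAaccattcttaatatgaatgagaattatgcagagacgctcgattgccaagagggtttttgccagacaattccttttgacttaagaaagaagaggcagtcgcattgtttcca
Myh1, GRCm38.p6 chr11:67199852-67200101, plus strand: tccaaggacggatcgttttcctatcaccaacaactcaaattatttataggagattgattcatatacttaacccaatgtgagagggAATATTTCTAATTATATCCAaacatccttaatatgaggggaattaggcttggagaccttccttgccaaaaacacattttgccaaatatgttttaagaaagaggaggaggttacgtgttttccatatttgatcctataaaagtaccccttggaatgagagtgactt
Myh4, GRCm38.p6 chr11:67237562-67237811, plus strand: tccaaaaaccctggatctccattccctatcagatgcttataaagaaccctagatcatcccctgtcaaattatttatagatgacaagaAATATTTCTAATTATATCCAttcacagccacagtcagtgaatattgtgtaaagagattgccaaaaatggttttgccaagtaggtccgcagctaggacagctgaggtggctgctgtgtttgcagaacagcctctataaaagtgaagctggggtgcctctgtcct
The shared stretch was 20 bases long. It began 130 bases before the Myh2 start, 165 before that of Myh1 and 163 before that of Myh4. On either strand it was found in 3 of 32851 windows of the same length, those of these genes. It was defined from these 3 windows, so its presence in them was certain, and the count does not measure how specific it is. The letters TATAAA, the TATA box motif, were searched on both strands. They were found in the Myh1 and Myh4 windows and not in that of Myh2, against 12.4% of all windows. The muscle E-box motif CANNTG was found in the Myh4 window at 2 positions and in neither of the others, against 66.2% of all windows. The MCAT motif, CATTCC, was found at 1 position each in the Myh1 and Myh4 windows and not in that of Myh2, against 12.6% of all windows. RefSeq's promoter table held 8 of the 10 genes, without Tnni2 and Tnnt3. These matches describe the letters only.

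Values are log2 signals relative to the 75th percentile of the same array, adjusted for slide. Levels of different genes come from different probes and are not comparable. The arrays lay on 2 slides. Slide 1 held days 3 and 7 and day 0 samples 1 and 2, and slide 2 held day 14 and all 4 day 0 samples, so that 2 RNA samples were measured on both. Slide 1 was the brighter, with a 75th percentile intensity of 203 to 271 against 49.1 to 77.0 on slide 2, and 48.3% to 55.3% against 37.9% to 42.9% of spots above background. No spot was saturated. The slow isoforms that define a soleus were present, with 13 of 14 above background on all arrays, the exception being Pln.

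**Figure D1:**
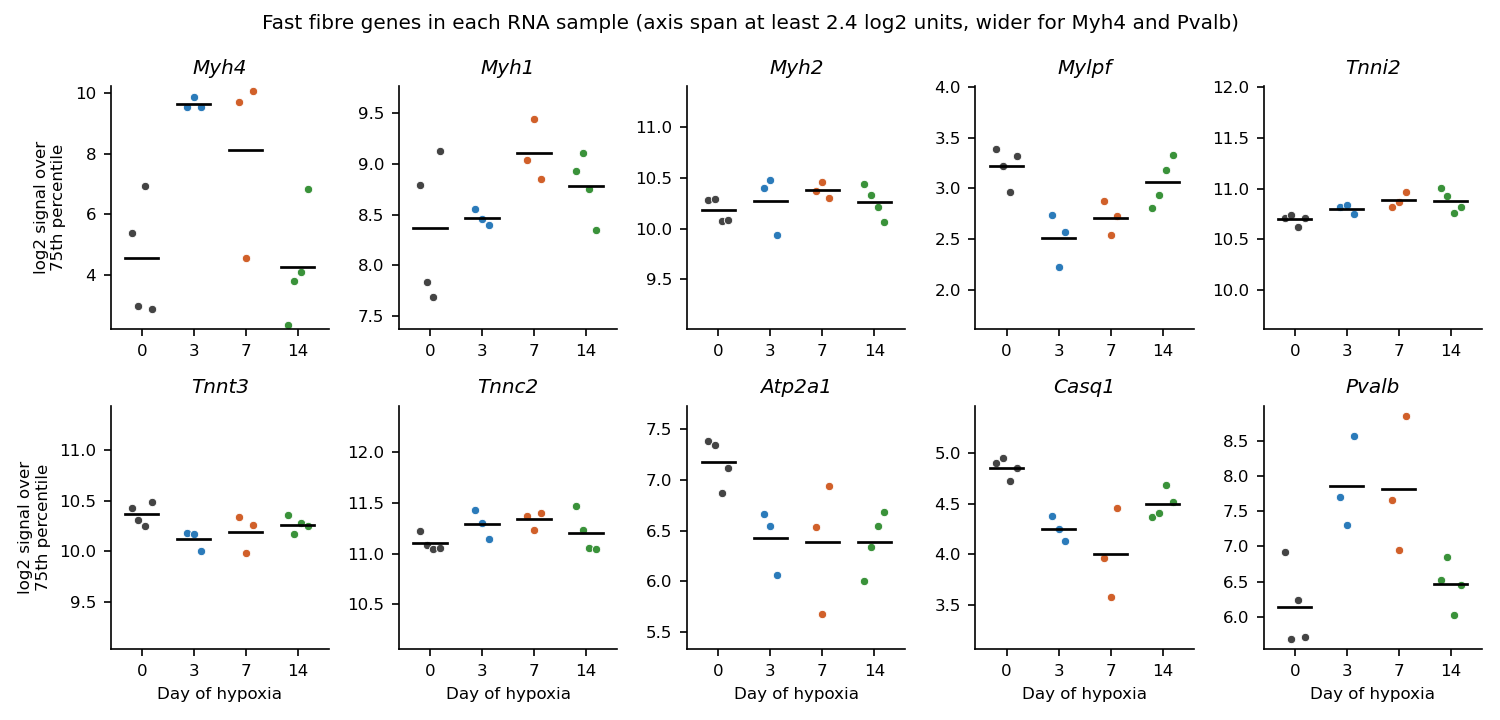
Level of each of the 10 genes (log2 signal over the 75th percentile of the array, slide-adjusted, vertical axis) by day of hypoxia (horizontal axis), with a point for each RNA sample and a bar for the mean of the day. The 3 day 3 samples of Myh4 lie between 9.52 and 9.85, above all 4 day 0 samples, and its day 7 samples split, while Tnni2 and Tnnc2 stay within narrow bands.

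Myh4, the type IIB heavy chain, had the largest spread between RNA samples of a day. At day 0 its log2 level was 5.38, 2.97, 6.94 and 2.87 in RNA samples 1 to 4. At day 3 it was 9.52, 9.85 and 9.54, and at day 7 it was 9.69, 4.56 and 10.08. At day 14 it was 2.35, 3.78, 4.11 and 6.82. All 3 day 3 samples and 2 of the 3 day 7 samples thus stood above every sample of days 0 and 14, and day 7 sample 2 stood inside the day 0 range.
The fitted difference from day 0 was +5.16 ± 1.57 at day 3 (SE, 3 against 4 RNA samples), a 35.6-fold higher signal, with an adjusted p of 0.0684 in limma. At day 7 it was +3.63 ± 1.57, or 12.3-fold, with an adjusted p of 0.113, and at day 14 it was −0.22 ± 1.26, with an adjusted p of 0.941. None of the 3 passed 0.05. Of 13 other settings of the processing, 5 brought the day 3 difference past the threshold, and 2 the day 7 one, while the day 3 value itself stayed between 4.66 and 5.34. Among these settings, slide 1 alone holds no day 14 samples and no day 0 samples 3 and 4. Day 14 stood 3.84 below day 7, with an SE of 1.83 and an adjusted p of 0.237. Day 7 sample 2 set the day 7 result: without it the difference was 5.40 at day 7 and 5.16 at day 3, with adjusted p-values of 0.0268 and 0.0272 in limma. That sample also had the highest summed signal of the tendon markers at day 7, 216 times the array's 75th percentile against 121 and 116 in the other samples, and of the adipocyte markers, 133 against 66.0 and 46.4. The brightest marker weighs most in such a sum, here Thbs4 for tendon and Cfd for adipocytes. At day 3, where Myh4 was high in all samples, the tendon sums were 96.8 to 155 and the adipocyte sums 111 to 188. Whether other tissue had a part in the Myh4 level was not tested, and in a whole muscle fewer fibres of a type and less RNA per fibre cannot be told apart.

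Arrays of the same RNA gave nearby Myh4 levels. RNA sample 1 of day 0, measured on both slides, gave Myh4 levels that differed by −0.21, and RNA sample 2 gave levels that differed by −0.32 (slide 1 minus slide 2), before any adjustment. The 4 day 0 samples spanned 4.06 on the same log2 scale, a 16.7-fold range, the day 7 samples 5.52, a 45.9-fold range, and the day 14 samples 4.47, a 22.1-fold range. The day 3 samples spanned only 0.33, a 1.26-fold range. The SD of Myh4 around its day means, 2.03, ranked 1 of 22145 features, whose median was 0.22 and whose next highest was 1.85. Computed within each slide with no adjustment it was 2.01 and ranked 2.

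The neighbours of Myh4 did not share its spread. Myh1, the type IIX heavy chain, had an SD of 0.45 and a level of 8.80, 7.84, 7.69 and 9.13 at day 0. Its day 3 levels were 8.55, 8.46 and 8.40, its day 7 levels 9.04, 9.45 and 8.85, and its day 14 levels 8.94, 9.11, 8.76 and 8.35. The day 0 samples formed an upper pair, samples 1 and 4, and a lower pair, samples 2 and 3, which is not the order of Myh4. The difference from day 0 was +0.11 ± 0.37 at day 3, +0.75 ± 0.37 at day 7 and +0.43 ± 0.29 at day 14, with adjusted p-values of 0.881, 0.154 and 0.426 in limma. Every day 7 sample was above every day 3 sample, by a fitted 0.64 ± 0.34 with an adjusted p of 0.399.
Myh2, the type IIA heavy chain, was nearly level. It was 10.28, 10.29, 10.07 and 10.08 at day 0, and 10.40, 10.47 and 9.94 at day 3. Day 7 gave 10.37, 10.45 and 10.31, and day 14 gave 10.44, 10.33, 10.21 and 10.06. Its differences from day 0 lay between +0.06 and +0.18, with SEs of 0.12 to 0.16, and its SD of 0.17 was below the median feature's.

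**Figure D2:**
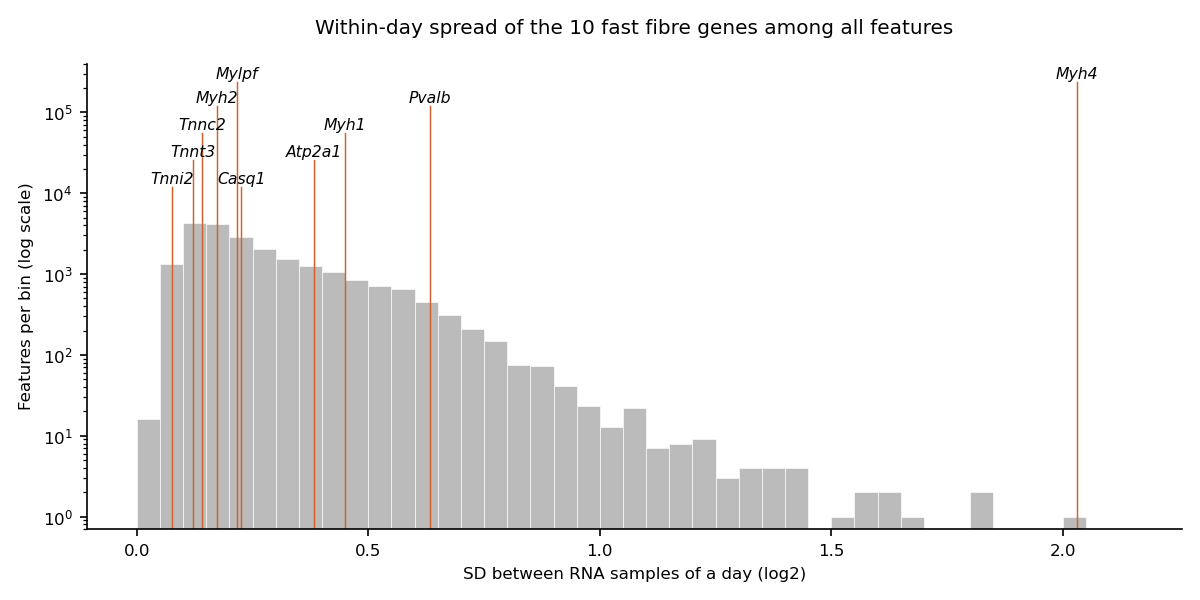
Number of features (vertical axis, log scale) by the SD between RNA samples of a day (log2, horizontal axis, bins of 0.05), with a line for each of the 10 fast fibre genes. Myh4 stands alone at 2.03, while 5 of the 10 lie below the median feature's 0.22.

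Mylpf, the regulatory light chain of fast myosin, fell at day 3. Its level was 3.39, 3.22, 2.96 and 3.32 at day 0 and 2.74, 2.23 and 2.57 at day 3. Day 7 gave 2.88, 2.54 and 2.73, and day 14 gave 2.81, 2.93, 3.18 and 3.33. All day 3 and day 7 samples lay below all day 0 samples, and day 14 overlapped day 0. The difference was −0.72 ± 0.19 at day 3, 1.65-fold lower with an adjusted p of 0.0387, and −0.52 ± 0.19 at day 7, with an adjusted p of 0.0563 in limma. At day 14 it was −0.17 ± 0.15, with an adjusted p of 0.543.
The Mylpf result depended on the slides. The same RNA read 0.87 and 1.02 higher on slide 1 than on slide 2 in samples 1 and 2 of day 0. With no slide term the day 3 difference was −0.10, and with day 0 taken from slide 2 alone, which sets slide 1 against slide 2, it was +0.28. On slide 1 alone it was −0.77 with an adjusted p of 0.127. The call was also lost with median scaling (0.116), with no filter on dim probes (0.0795), and without day 0 sample 1 (0.147), 2 (0.278) or 4 (0.0538), day 3 sample 2 (0.126) or day 7 sample 1 (0.050).

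The fast troponins, which hold the calcium switch of the thin filament, varied less between samples of a day than the median feature. A lower SD was found in 1.42% of features for Tnni2, 12.9% for Tnnt3 and 21.5% for Tnnc2. Tnni2, the inhibitory subunit, was 10.71, 10.74, 10.62 and 10.71 at day 0. It was 10.82, 10.84 and 10.75 at day 3, and 10.82, 10.87 and 10.97 at day 7. At day 14 it was 11.004, 10.93, 10.76 and 10.82. Every later sample thus lay above every day 0 sample, but by little: the differences were +0.10 ± 0.10, +0.18 ± 0.10 and +0.18 ± 0.08, with adjusted p-values of 0.551, 0.192 and 0.219 in limma. Its SD of 0.08 ranked 21830 of 22145. The direction turned at day 3 with no slide term, to −0.03.
Tnnc2, the calcium-binding subunit, was 11.23, 11.08, 11.04 and 11.06 at day 0, and 11.43, 11.31 and 11.15 at day 3. Its day 7 levels were 11.38, 11.24 and 11.40, and its day 14 levels 11.47, 11.23, 11.05 and 11.04. Only the day 7 samples lay wholly above day 0, with a difference of +0.23 ± 0.13 and an adjusted p of 0.246 in limma.
Tnnt3, the tropomyosin-binding subunit, was 10.42, 10.31, 10.24 and 10.49 at day 0, and 10.18, 10.16 and 10.00 at day 3. It was 10.33, 9.98 and 10.26 at day 7, and 10.36, 10.17, 10.27 and 10.25 at day 14. The day 3 samples lay below day 0, with a difference of −0.25 ± 0.12 and an adjusted p of 0.213 in limma. A second probe of Tnnt3, of another transcript, gave −0.28 ± 0.13. Its SD of 0.12 and that of Tnnc2, 0.14, were below the median feature's. The signs of both genes' differences at days 3 and 7 turned with day 0 taken from slide 2 alone, which sets slide 1 against slide 2. On slide 1 alone Tnnt3 read −0.25 and −0.17 at days 3 and 7, and Tnnc2 read +0.16 and +0.20.

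The calcium-handling genes moved in opposite directions. Pvalb encodes parvalbumin, the soluble calcium buffer of the fastest fibres. It was 6.92, 5.70, 6.25 and 5.71 at day 0, and 7.70, 7.30 and 8.57 at day 3. At day 7 it was 7.66, 6.95 and 8.84, and at day 14 it was 6.52, 6.85, 6.03 and 6.45. All day 3 and day 7 samples stood above all day 0 samples, and day 14 lay inside the day 0 range.
Pvalb rose at day 7 by 1.65 ± 0.51, a 3.14-fold higher signal, with an adjusted p of 0.0319 in limma. At day 3 the difference was +1.69 ± 0.51, or 3.22-fold, with an adjusted p of 0.0651, and at day 14 it was +0.29 ± 0.41, with an adjusted p of 0.720. Day 14 lay 1.36 ± 0.59 below day 7, and no day 14 sample reached a day 7 one, but the adjusted p was 0.198. The second probe of the same transcript gave +2.02 ± 0.43 at day 3 and +2.03 ± 0.43 at day 7, with adjusted p-values of 0.0271 and 0.00728 in the limma fit over single probes, so the probes differed in the day 3 call.
The direction held under each treatment of the slides, from 1.60 to 1.89 at day 3 and from 1.56 to 1.85 at day 7. The day 7 call was lost on slide 1 alone, with an adjusted p of 0.116, with quantile normalization, 0.0735, with no filter on dim probes, 0.0527, and without day 0 sample 2, 0.261, day 7 sample 1, 0.0618, or day 7 sample 4, 0.0945.

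Casq1, calsequestrin of the fast type, binds calcium inside the sarcoplasmic reticulum. Its level was 4.90, 4.95, 4.72 and 4.85 at day 0 and 4.37, 4.25 and 4.13 at day 3. It was 3.96, 3.58 and 4.46 at day 7 and 4.36, 4.40, 4.69 and 4.52 at day 14. Every later sample lay below every day 0 sample. Casq1 fell at day 7 by 0.86 on the log2 scale, with an SE of 0.19, which is 1.82-fold lower with an adjusted p of 0.0077 in limma. The differences of −0.61 ± 0.19 at day 3 and −0.37 ± 0.15 at day 14 had adjusted p-values of 0.0724 and 0.199. Casq1 was also the only one of the 10 to pass the F-test over all days, with an adjusted p of 0.0285.
Atp2a1, the calcium pump SERCA1 of fast fibres, was 7.38, 7.35, 6.88 and 7.12 at day 0, and 6.67, 6.55 and 6.06 at day 3. It was 6.54, 5.68 and 6.94 at day 7, and 6.002, 6.34, 6.55 and 6.68 at day 14. Days 3 and 14 lay wholly below day 0 and day 7 overlapped it through sample 4. The differences were −0.79 ± 0.31, −0.82 ± 0.31 and −0.82 ± 0.24, with adjusted p-values of 0.131, 0.0668 and 0.112 in limma.
Both genes read higher on slide 1 in the RNA samples measured on both slides, by 0.49 and 0.70 for Casq1 and by 0.80 and 0.88 for Atp2a1. With no slide term the Casq1 difference at day 7 was −0.47, with an adjusted p of 0.12, and with day 0 from slide 2 alone it was −0.22. On slide 1 alone it was −0.90 with an adjusted p of 0.0531, and without day 0 sample 2 it was −0.77 with 0.106. With day 0 from slide 2 alone, which sets slide 1 against slide 2, Atp2a1 read +0.17 at day 3 and +0.13 at day 7. On slide 1 alone it read −0.88 and −0.92, with adjusted p-values of 0.211 and 0.110 in limma.

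**Figure D3:**
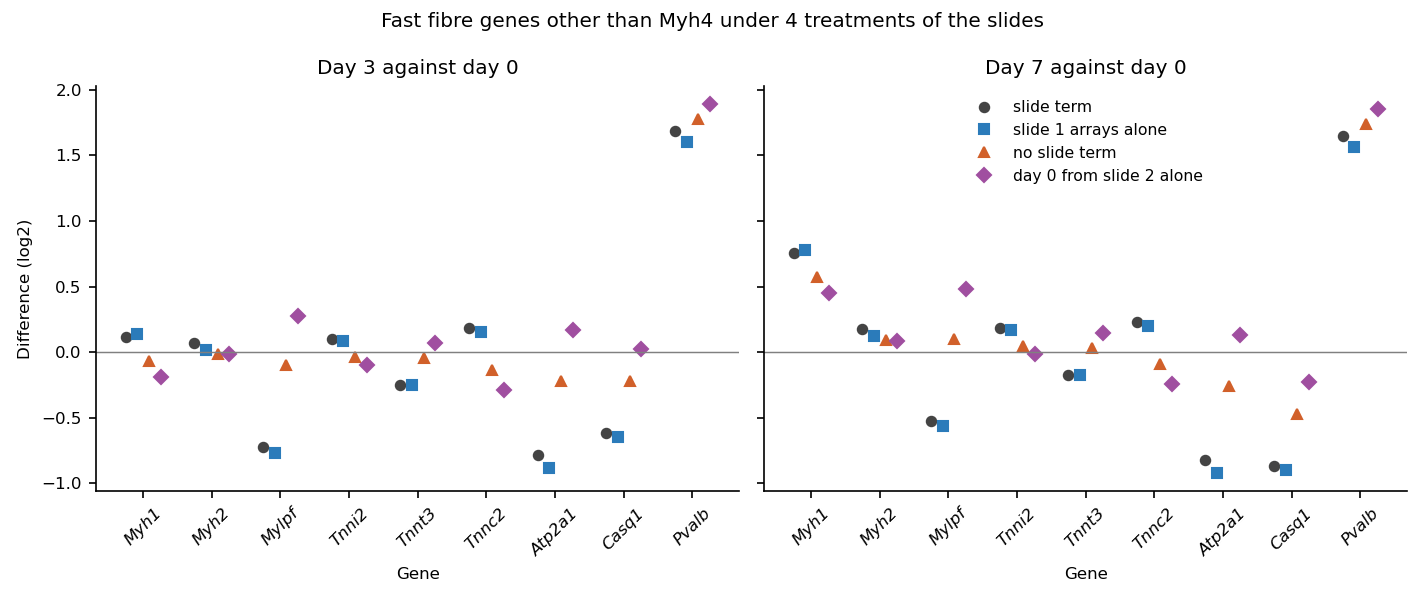
Difference from day 0 (log2, vertical axis) of the 9 genes other than Myh4 (horizontal axis) at day 3 and day 7 with a slide term, on slide 1 alone, with no slide term and with day 0 from slide 2 alone. Pvalb keeps its place between 1.56 and 1.89, whereas Mylpf at day 3 runs from −0.77 to +0.28.

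The counts of the 10 genes that passed were between 0 and 2 in the comparisons of days. At day 3, 1 of 10 genes passed (0 higher, 1 lower), where 6.09% of all 22145 features were called. At day 7, 2 of 10 passed (1 higher, 1 lower), where 23.8% were called. Other settings of the processing called 0 to 6 of the 10 at day 3 and 0 to 5 at day 7, the most at day 3 with array weights. The features called moved with the settings too, from 0 to 6682 at day 3 and from 2093 to 9511 at day 7. Both counts of the 10 genes were 0 on slide 1 alone, which does not hold all RNA samples. Without day 7 sample 2 they were 4 and 3, and without day 0 sample 2 they were 0 and 0. At day 14, 0 of 10 passed in limma, where 0.402% were called, and 3 of 10 had an unadjusted p under 0.05. The share of all features under that unadjusted threshold is not given here, for this count or for those below. Counts of unadjusted p therefore cannot be set against the shares called, which use the adjusted p. With no slide term 2 passed at day 14, and 0 did under the other settings. Over these settings the features called at day 14 ran from 1 to 3094. All 3 comparisons share the day 0 samples. The median difference of the 10 was +0.09, +0.18 and −0.02 at days 3, 7 and 14, against +0.06, +0.09 and +0.06 over all features.
Between day 7 and day 3, which lay on the same slide, 0 of 10 passed, where 0.677% of features were called. An unadjusted p under 0.05 was reached by 0 of 10. Array weights called 2 of the 10, and the features called ran from 0 to 8716 over all other settings. Between day 14 and day 7, 0 of 10 passed and 2 had an unadjusted p under 0.05, Pvalb lower and Casq1 higher, where 2.3% were called. Other settings called 0 to 3 of the 10 there, and the features called ran from 285 to 4834. The F-test over days called 1 of 10, where 17% of features were called. Counting genes whose samples did not overlap with day 0, 7 of 10 stood apart at day 3 (3 higher, 4 lower; 30.7% of all features did). At day 7 it was 6 of 10 (4 higher, 2 lower, against 41.8%), and at day 14 it was 3 of 10 (1 higher, 2 lower, against 15.1%).

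**Figure D4:**
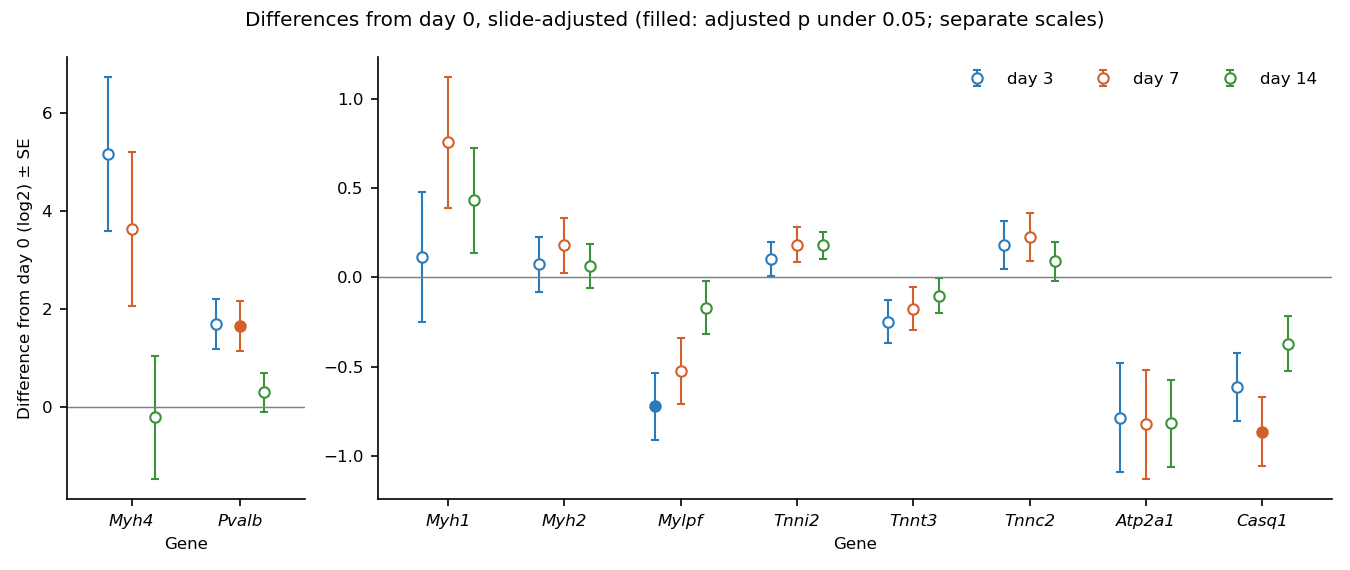
Fitted difference from day 0 (log2, vertical axis) with its SE for each of the 10 genes (horizontal axis) at days 3, 7 and 14. Filled points passed an adjusted p of 0.05: Mylpf at day 3, and Pvalb and Casq1 at day 7.

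Fast isoforms were also read against their slow counterparts within each array, which removes the scaling of the array, with the day 0 mean set to 0. The difference of Tnni2 and Tnni1, the slow inhibitory subunit, was −0.04 to 0.05 at day 0 and 0.81, 1.21 and 0.88 at day 3. It was 0.96, 1.63 and 1.08 at day 7, and 0.93, 0.80, 0.61 and 0.23 at day 14. Every later sample exceeded every day 0 sample. This shift came mostly from Tnni1, which fell by 0.87 ± 0.20 at day 3 and by 1.05 ± 0.20 at day 7 (adjusted p = 0.0286 and 0.00451 in limma), while Tnni2 passed at neither.
The difference of Tnnc2 and slow Tnnc1 was 0.78, 0.97 and 0.62 at day 3 and 0.59, 0.86 and 0.81 at day 7, above a day 0 range of −0.08 to 0.10. That of Mylpf and slow Myl2 was −0.61, −1.10 and −0.61 at day 3 and −0.46, −0.78 and −0.54 at day 7, below a day 0 range of −0.15 to 0.16. The pairs therefore moved apart in opposite directions. Atp2a1 against Atp2a2, the slow and cardiac pump, averaged −0.70, −0.71 and −0.84 at days 3, 7 and 14. Casq1 against Casq2, the slow and cardiac calsequestrin, averaged 0.02, 0.12 and 0.20, since Casq2 fell too, by 0.99 ± 0.19 at day 7 with an adjusted p of 0.00437 in limma. Tnnt3 against slow Tnnt1 averaged −0.22, −0.15 and −0.21. Myh4 against Myh7, the slow heavy chain, was 4.77, 5.15 and 5.12 at day 3, and 4.98, −0.26 and 5.53 at day 7, against −1.63 to 2.42 at day 0.
These within-array differences were not free of the slide. With day 0 from slide 2 alone, a choice made after the values were seen, Tnni2 against Tnni1 averaged −0.29 at day 3 and −0.03 at day 7, and Mylpf against Myl2 averaged +0.40 and +0.58. Tnnc2 against Tnnc1 averaged −0.32 and −0.36. On slide 1 alone these 3 pairs averaged 0.99, −0.80 and 0.75 at day 3.

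**Figure D5:**
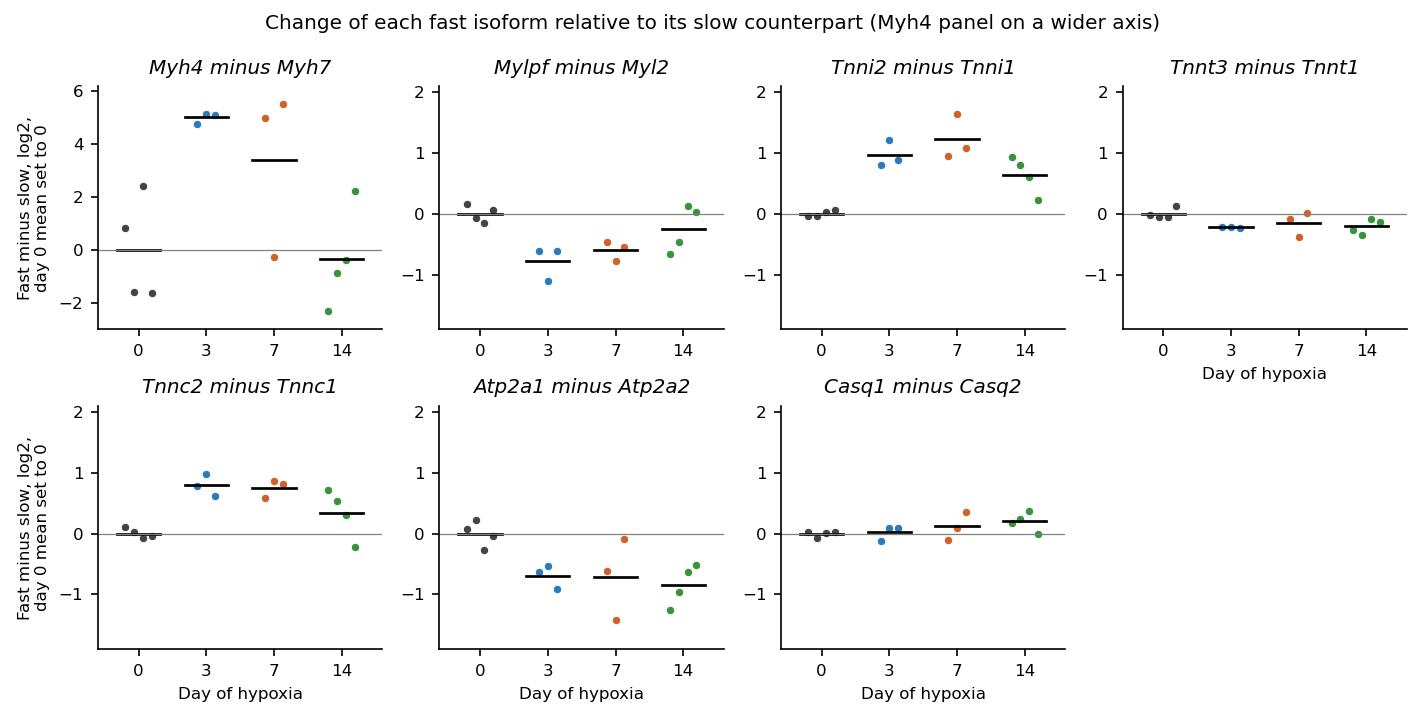
Difference between a fast isoform and its slow counterpart within an array (log2, day 0 mean set to 0, vertical axis) by day of hypoxia (horizontal axis), with a point per RNA sample and a bar per day mean. The Tnni2 and Tnnc2 pairs lie above 0 at days 3 and 7, and the Mylpf pair lies below.

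Beyond the 10, slow isoforms and other genes of fast fibres, energy supply, calcium release and regulation gave 26 calls under the rule for named genes, and all 26 were lost without day 0 sample 2. The calls lost were 21 with no slide term and 20 with day 0 from slide 2 alone. On slide 1 alone 19 of the 25 that could be fitted were lost. No filter on dim probes ended 14, median scaling 10 and the mean over a gene's probes 5, and leaving out any RNA sample other than day 0 sample 2 ended 2 to 16, the most without day 0 sample 1.
The slow isoforms as a group counted 0 higher and 2 lower of 14 at day 3, and 1 higher and 6 lower at day 7, where 6.09% and 23.8% of all features were called. Their median difference was −0.18 at day 3 and −0.19 at day 7. Myh7b, a slow-type heavy chain, fell by 0.59 ± 0.14 at day 3 (adjusted p = 0.0331), and Mybpc1, slow myosin-binding protein C, rose by 0.55 ± 0.16 at day 7 (adjusted p = 0.0253 in limma). The mean over Mybpc1's probes gave +0.24, with an adjusted p of 0.265. Myh7 itself read +0.08 ± 0.11 and +0.15 ± 0.11, with adjusted p-values of 0.716 and 0.385. With day 0 from slide 2 alone, which sets slide 1 against slide 2, Tnni1 read +0.19 at day 3 and +0.02 at day 7. On slide 1 alone it read −0.91 at day 3, with an adjusted p of 0.128 in limma.
Of 9 other fast sarcomere and membrane genes, 0 rose and 2 fell at day 3, against 6.09% of all features called, and 2 rose and 2 fell at day 7, against 23.8%. Myom2, the M-band myomesin of fast fibres, was higher by 0.69 ± 0.20 at day 7 (adjusted p = 0.0249) and lower at day 14 than at day 7 by 1.01 on the log2 scale, with an SE of 0.23 (adjusted p = 0.0429). Tmod4, the tropomodulin of skeletal muscle, rose by 0.48 ± 0.14 at day 7 (adjusted p = 0.0263). Sypl2, a mitsugumin of the triad, fell by 0.85 ± 0.19 and 1.09 ± 0.19 at days 3 and 7, and Srl, sarcalumenin, fell by 0.47 ± 0.10 and 0.31 ± 0.10, with adjusted p-values of 0.027, 0.00355, 0.0254 and 0.0433 in limma. Actn3, the fast fibre actinin, read +1.43 ± 0.63 at day 3 with an adjusted p of 0.172. The list's median was +0.21 at day 3 and +0.27 at day 7.
Of 12 enzymes of energy supply that are rich in fast fibres, 0 passed in limma at day 3, with 3 at an unadjusted p under 0.05, and 2 rose at day 7, where 6.09% and 23.8% of all features were called. The list's median was +0.13 and +0.25. Fbp2, the muscle fructose bisphosphatase, was up by 1.44 ± 0.36 (adjusted p = 0.0128) and Ldha, lactate dehydrogenase A, by 0.50 ± 0.14 (adjusted p = 0.0213 in limma). The mean over Ldha's probes gave −0.17.
Of 10 calcium release and triad genes, 1 fell at day 3, and 5 rose and 3 fell at day 7, against 6.09% and 23.8% of all features called, and the median was +0.06 and +0.09. Cacna1s, the voltage sensor, rose by 0.42 ± 0.11 at day 7, and Hrc, a luminal calcium-binding protein, by 0.44 ± 0.13 (adjusted p = 0.0163 and 0.0233 in limma). The mean over the probes of Cacna1s gave +0.077, with an adjusted p of 0.644. Jph2, a junctophilin that ties the reticulum to the surface membrane, fell by 1.27 ± 0.30 (adjusted p = 0.0098). Ryr1, the release channel, fell by 0.68 ± 0.14 at day 3 and by 0.51 ± 0.14 at day 7 (adjusted p = 0.0222 and 0.0210 in limma). With day 0 from slide 2 alone, which sets slide 1 against slide 2, Ryr1 read +0.26 and +0.44.
Of 17 regulators of fibre type, 1 rose and 1 fell at day 3, and 2 rose and 3 fell at day 7, against 6.09% and 23.8% of all features called, and the median was +0.05 and +0.09. Maf, a transcription factor tied to type IIB myosin, rose by 0.94 ± 0.22 at day 3 (adjusted p = 0.0304). Tbx15, a transcription factor of fast fibres, rose by 0.39 ± 0.13 at day 7 (adjusted p = 0.0496). Rcan1, a calcineurin inhibitor and target, fell by 0.97 ± 0.17 at day 7 and by 0.89 ± 0.16 from day 3 to day 7 (adjusted p = 0.00370 and 0.0235). Mef2d, a muscle transcription factor, fell by 0.77 ± 0.15 and 0.85 ± 0.15 at days 3 and 7 (adjusted p = 0.0192 and 0.0037 in limma). With day 0 from slide 2 alone, which sets slide 1 against slide 2, Mef2d read +0.15 and +0.08. Of 6 embryonic and perinatal sarcomere genes, 0 passed in limma in any comparison, with 1 in day 7 against day 3 and 0 elsewhere at an unadjusted p under 0.05. Myh8, the neighbour of Myh4, read +0.14 ± 0.13 at day 3 with an adjusted p of 0.551 in limma, while cardiac Actc1 read +0.31 ± 0.29.

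Markers of other cell types moved in part with the days. The summed signal of the 5 red blood cell markers, in multiples of the array's 75th percentile, was 215 to 312 at day 0, 105 to 192 at day 3, 176 to 241 at day 7 and 637 to 1266 at day 14. The 6 adipocyte markers summed to 58.4 to 78.8 at day 0, 111 to 188 at day 3, 46.4 to 133 at day 7 and 32.6 to 103 at day 14. The 8 tendon markers summed to 56.5 to 148, 96.8 to 155, 116 to 216 and 43.0 to 91.4 in the same order. The 4 measured macrophage markers summed to 13.8 to 19.0, 14.3 to 32.3, 10.5 to 12.0 and 13.8 to 14.97, with day 3 sample 4 the highest. The 5 Schwann cell markers summed to 15.6 to 21.3, 19.5 to 21.0, 20.5 to 27.4 and 12.0 to 23.8. Cd68, also listed as a macrophage marker, was not among the features tested. All red blood cell markers, the 4 measured macrophage markers, and all but 1 of each other list were above background on all arrays. Their part in the fast fibre results was not tested.

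Features were ranked by how closely their deviations from their day means followed those of Myh4 over the 14 RNA samples. The list of the most alike named features was drawn without the other 9 fast fibre genes, whose own ranks are given after it. The nearest feature of all had no gene symbol, and the named ones that followed were Ptprcap (r = 0.93, Spearman's rho = 0.94), Wdsub1 (r = 0.92), Zfp108 (r = 0.89), Zbtb7a (r = 0.89) and Pradc1 (r = 0.88). They were followed by 1700111N16Rik, Rnpep, Slc29a2, Aldh9a1 and Map2k7, with r from 0.86 to 0.85. Of these, 1700111N16Rik was above background on only 5 of the 16 arrays. The most opposed were Fgfr3 (r = −0.90), Eif1b (r = −0.90), Gch1, Pde8a and Nasp (r = −0.88 for each). Without day 7 sample 2 and day 14 sample 4, the samples farthest from the middle, r was 0.89 for Ptprcap and −0.82 for Fgfr3. Both had been picked for an extreme r among 22144 features in the same samples, so these values give no separate support for the likeness. The spread of these genes was far smaller than that of Myh4: the SD was 0.17 for Ptprcap and 0.38 for Fgfr3.
The other 9 fast fibre genes ranked from 755 to 20620 among 22144 features. Atp2a1 was the nearest (r = 0.60, rho = 0.56), then Pvalb (r = 0.52) and Casq1 (r = 0.49), and Myh1 was the most opposed (r = −0.56, rho = −0.60). Without the same 2 samples these were 0.31, 0.43, 0.25 and −0.45. The points share arrays and scaling, so these values only describe the 14 samples.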

How the data were processed

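The arrays were scanned and read with Agilent Feature Extraction 11.0.1.1, per the file headers, and the deposited values are 1-colour Cy3 intensities per spot, background-subtracted by that software. Their log2 minus the array's 75th percentile over non-control spots was used. The authors' deposited series table of intensities, log2-transformed, served as an alternative. Probes were named through their RefSeq transcripts: 27650 of 55681 had a symbol, 37 without a value were left out, and 29479 above background on at least 3 of 16 arrays were kept. The brightest probe stood for each gene, giving 22145 features.

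limma 3.58.1 in R 4.3.3 fitted day and slide over all 16 arrays, with RNA sample as a random block (correlation 0.448). P-values are 2-sided with Benjamini-Hochberg adjustment over all features, and a call is an adjusted p under 0.05. Means, SDs and per-sample values are slide-adjusted. The script was tested on simulated data. The alternatives covered slide, scaling, background, filter, probe choice, array weights, a replicate block and each RNA sample left out. Genes named outside the 10 were up to 2 per direction, list and comparison with the smallest p, and the 10 most and 5 least like Myh4. A gene that the rule names is not reported here. The members and lists were chosen with earlier results of these data known. The design text gives 4 muscles a time, and sample 3 of days 3 and 7 was not analysed here. The number of arrays limits the precision. Probe sequences were not used here, so binding to related myosin transcripts was not checked.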

Additional observations from a re-analysis of the deposited data

How the results depend on the processing

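Whether replicate numbers pair the RNA samples was not settled. Same-numbered samples correlated weakly, between −0.152 and 0.169 in 19 pairs, of which 7 were negative. Of 14 samples, 7 correlated best with a sample of their own number, and no chance level was computed for this. With a replicate block, 1, 2, 0, 0 and 0 of the 10 genes passed at day 3, 7 and 14 against day 0, day 7 against 3 and day 14 against 7, as without it, and the F-test called 0 in place of 1. Of the 26 calls on other genes 3 were lost with the block, among them Tbx15 at day 7 (adjusted p = 0.107) and Rcan1 from day 3 to day 7 (0.0710). In the same order of comparisons, and then the F-test, the 10 genes gave counts of 4, 4, 0, 0, 0 and 5 with only probes above background on all arrays, and of 0, 1, 0, 0, 0 and 0 with no filter. They were 6, 5, 0, 2, 2 and 5 with array weights, 4, 4, 0, 0, 1 and 4 with arrays of an RNA sample averaged, and 4, 5, 0, 0, 1 and 5 with normexp on the median signals, since the files hold no mean signal. They were 2, 4, 0, 0, 0 and 2 with the deposited table, 1, 4, 0, 0, 0 and 2 with quantile normalization, 0, 2, 0, 0, 0 and 0 with median scaling, and 2, 2, 0, 0, 0 and 2 with the mean over probes. They were 0, 1, 2, 0, 1 and 3 with no slide term and 1, 1, 0, 0, 3 and 4 with day 0 from slide 2 alone. On slide 1 alone they were 0 and 0 at days 3 and 7. The counts ranged from 0 to 4 at day 3, 0 to 3 at day 7, 0 to 1 for day 14 against 7 and 0 to 3 for the F-test with each RNA sample left out in turn, the highest at day 3 without day 7 sample 2. The day 14 and day 7 against day 3 counts were 0 in each of those. Where day 0 sample 1 or 2 was left out, the correlation of all arrays was used. Over the settings of the processing, the features called ran from 1 to 3094 at day 14 and from 0 to 8716 for day 7 against 3. The range was 285 to 4834 for day 14 against 7 and 1450 to 12268 for the F-test. The features called ran from 0 to 6682 at day 3 and from 2093 to 9511 at day 7. Without day 0 sample 2 they were 10 and 107, and without day 0 sample 1 they were 94 and 2616, against 1349 and 5263. Median scaling moved the median of all features to 0.17 at day 3, 0.22 at day 7 and −0.27 for day 14 against 7.

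Signs turned as follows, past the threshold only for Ryr1. With no slide term, Myh4 at day 14 read 0.054, Myh1 and Myh2 at day 3 −0.069 and −0.013, Mylpf and Tnnt3 at day 7 0.10 and 0.032, Tnni2 at day 3 −0.034, Tnnc2 at days 3 and 7 −0.13 and −0.090, and Ryr1 at day 7 0.091. With day 0 from slide 2 alone, the day 3 values were −0.19 for Myh1, −0.018 for Myh2, 0.28 for Mylpf, −0.10 for Tnni2, 0.070 for Tnnt3, −0.29 for Tnnc2, 0.17 for Atp2a1, 0.026 for Casq1, 0.19 for Tnni1, 0.26 for Ryr1 and 0.15 for Mef2d. The day 7 values were 0.48 for Mylpf, −0.014 for Tnni2, 0.14 for Tnnt3, −0.24 for Tnnc2, 0.13 for Atp2a1, 0.017 for Tnni1, 0.027 for Srl, −0.064 for Ldha, 0.44 for Ryr1 (adjusted p = 0.0341 in limma) and 0.078 for Mef2d. Ldha read −0.17 with the mean over probes. Casq1 from day 7 to day 14 read −0.15 under both treatments of the slides. Both treatments have no slide term, so within them a slide offset and a day difference cannot be told apart. With a slide term, the offset is estimated from the day 0 arrays, which lie on both slides. On slide 1 alone, each fast fibre gene kept its sign of the fit with a slide term at days 3 and 7. At day 14, Myh2 read −0.037 with median scaling, −0.045 with quantile normalization, −0.093 with normexp and −0.24 with the deposited table, and Tnnc2 read −0.011, −0.023, −0.064 and −0.033. With an RNA sample left out, Myh4 ran from −1.07 to 0.60 at day 14 and from −2.51 to 0.25 for day 7 against 3, Pvalb from −0.55 to 0.39 for day 7 against 3, Myh1 from −0.26 to 0.47 and Myh2 from −0.030 to 0.24 at day 3, and Tnnc2 from −0.0024 to 0.14 at day 14. The cause was not tested. Pairs with day 0 from slide 2 alone read, at days 3 and 7, 0.40 and 0.58 for Mylpf and Myl2, −0.29 and −0.031 for Tnni2 and Tnni1, 0.26 and 0.32 for Tnnt3 and Tnnt1, −0.32 and −0.36 for Tnnc2 and Tnnc1, 0.045 and 0.029 for Atp2a1 and Atp2a2, and 0.31 and 0.41 for Casq1 and Casq2. On slide 1 alone the day 3 value was 5.28 for Myh4 and Myh7 and −0.19 for Tnnt3 and Tnnt1.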

Other observations

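Myh4 was followed by few other named genes in its spread between RNA samples of a day. The clearest among those above background on all 16 arrays was Mss51, a gene known mainly from fast skeletal muscle, with an SD of 1.54 and rank 9 of 22145. It was chosen after its values were seen. Its log2 level was −1.49, −1.80, −1.06 and −1.64 at day 0 and 2.15, 1.58 and −0.08 at day 3. At day 7 it was 0.80, −1.45 and 4.90, and at day 14 it was −1.34, −1.71, −1.40 and −1.32. All 3 day 3 samples and day 7 samples 1 and 4 thus lay above every sample of days 0 and 14, and day 7 sample 2 lay inside the day 0 range. These are the samples in which Myh4 was high. Within the other days the 2 genes were less alike. Mss51 ran from −1.80 to −1.06 at day 0 and from −1.71 to −1.32 at day 14, where Myh4 ran from 2.87 to 6.94 and from 2.35 to 6.82. In day 3 sample 4 Mss51 was the lowest of its day, while Myh4 was 9.54. Mss51 was not among the 10 named features most like Myh4. No test of this likeness was made, and its cause was not tested.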
